A study of Mus musculus with 11 samples.

Results

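Dbt, Hsd17b10 and Mmut code for mitochondrial enzymes that break down the branched-chain amino acids leucine, isoleucine and valine. They were taken as the spots whose platform annotation carries these symbols, 3 genes of 8146 with a spot on the arrays, and each has 1 spot. The choice was made with their differences between the groups known, so their values are a description and carry no test here.

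The study compared ventricles (right, left and septum) of TG1306/1R males on a C57/BL6 background, about 60 weeks old and untreated, a line with raised cardiac angiotensinogen and hence angiotensin II. Dil were 4 heterozygous transgene carriers with dilated hearts, Hyp were 4 heterozygous carriers with concentric hypertrophy, and WT were 4 littermates without the transgene. Per the labels, carrier hearts were assigned by genotype, chamber shape, cardiac weight index and hypertrophic markers, so Dil and Hyp share genotype and age and differ by selected heart phenotype. The cardiac weight index was 8.22 ± 0.665 mg/g in Dil, 5.54 ± 0.18 mg/g in Hyp (1 Hyp mouse carries label values of 5.3 and 5.6 mg/g, averaged here) and 4.53 ± 0.287 mg/g in WT (SD, n = 4 each). Mice carry numbers from 1 to 4 in each group, and mice of the same number are called a set. Each of 11 cDNA arrays held labelled RNA of 2 mice of a set: 3 arrays compared Dil with WT, 4 compared Hyp with WT and 4 compared Dil with Hyp. The Dil and WT array of set 2 was not analysed here.

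The deposited values are log ratios of the dyes, with no signal level, so neither the depth behind a spot nor the presence of a tissue marker can be read from them. Ratios were taken as Cy5 over Cy3 and as log2, neither of which is stated in the sources used here. The direction is only likely: with it Nppb, a natriuretic peptide gene of stressed heart muscle, was higher than in WT by 2.53 ± 0.32 in Dil and by 1.02 ± 0.30 in Hyp, and Agt, the angiotensinogen gene, by 2.15 ± 0.40 in Dil and 2.09 ± 0.40 in Hyp (log2 ± SE). The opposite direction would turn every sign below, and natural logarithms would make every ratio and percentage below too small a change. On the array of WT1 and Hyp1 most rows were displaced by 8 print blocks and were moved back. The Dbt spot is among those moved, the Mmut spot lay in its own place, and the Hsd17b10 value on this array could not be recovered, so Hsd17b10 has 10 arrays. Array spread differed, with a median absolute deviation of 0.335 and 0.354 on the Dil and WT arrays of sets 3 and 4, against 0.172 on that of set 1.

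Breakdown of branched-chain amino acids starts with their uptake and the removal of the amino group by the transaminases Bcat1 and Bcat2. The resulting keto acids enter the branched-chain keto acid dehydrogenase (BCKDH), a mitochondrial complex that commits them to oxidation and is switched off by its kinase. Separate branches for leucine, isoleucine and valine follow and deliver acetyl-CoA, acetoacetate and propionyl-CoA, and propionyl-CoA is turned into succinyl-CoA of the TCA cycle. The heart takes part in this oxidation beside its main fuels. Dbt is the E2 core of BCKDH, a lipoate-bearing acyltransferase. Hsd17b10 is a dehydrogenase of the isoleucine branch and also a subunit of mitochondrial RNase P. Mmut, methylmalonyl-CoA mutase, makes succinyl-CoA with a vitamin B12 cofactor.

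In Dil hearts all 3 members lay below their WT level, with Hyp hearts in between. Fitted over all arrays, Dbt in Dil was 38.2% below WT, Hsd17b10 30.9% and Mmut 29.2%. In Hyp the fitted values were 16.6% below WT for Dbt, 11.7% for Hsd17b10 and 9.91% for Mmut, with errors given below. Of the members' direct array values, 9 of 9 were below 0 for Dil minus WT, 8 of 11 for Hyp minus WT and 10 of 12 for Dil minus Hyp. The genes share these arrays and were chosen with their differences known. The counts are thus not independent and follow in part from the choice. In bulk tissue, fewer cells of a type and less RNA per cell cannot be told apart.

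**Figure D1:**
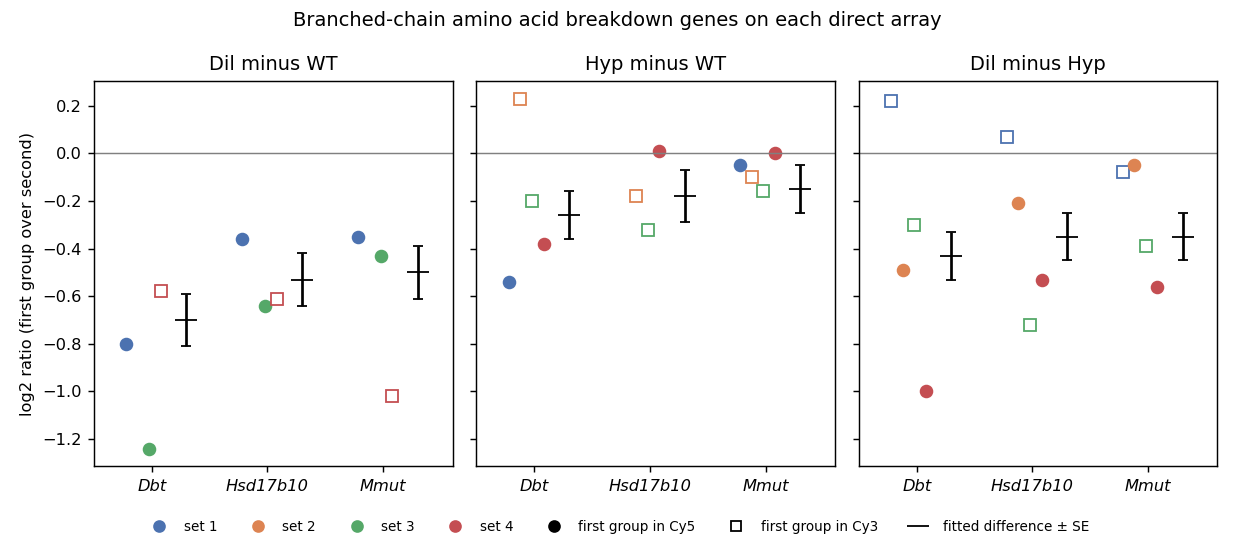
Log2 ratio on each direct array (vertical axis) for Dbt, Hsd17b10 and Mmut in the comparisons Dil minus WT, Hyp minus WT and Dil minus Hyp. Colours are the sets, filled circles have the mouse of the group named first in Cy5 and open squares have it in Cy3, and black bars are fitted differences ± SE. All 9 Dil minus WT values, from 3 arrays, lie below 0, and the Dil minus Hyp values of set 1 lie highest for Dbt and Hsd17b10.

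Dbt, whose gene lies at chr3:116513070-116549981 (GRCm38.p6), had log2 ratios of Dil over WT of -0.80, -1.24 and -0.58 in sets 1, 3 and 4. All 3 were low, that of set 3 lowest. For Hyp over WT the values were -0.54, 0.23, -0.20 and -0.38 in sets 1 to 4, with set 2 above 0. Dil over Hyp gave 0.22, -0.49, -0.30 and -1.0, with set 1 above 0 and set 4 far below the rest. The fit placed Dbt at -0.70 ± 0.11 for Dil minus WT, -0.26 ± 0.10 for Hyp minus WT and -0.43 ± 0.10 for Dil minus Hyp (log2 ± SE, 4 mice per group). These correspond to ratios of 0.618, 0.834 and 0.74. Of the 12097 features measured, 36 had a lower Dil minus WT value than Dbt, a rank that follows in part from how Dbt was chosen.

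The Dbt spot also showed the strongest dependence on the dye among the members. Its fitted dye term was -0.28, against 0.04 for Hsd17b10 and 0.08 for Mmut. With the Dil mouse in Cy5 the Dil over WT values of Dbt averaged -1.02 (sets 1 and 3), against -0.58 with it in Cy3 (set 4). Dil over Hyp averaged -0.75 with Dil in Cy5 and -0.04 with Dil in Cy3, and Hyp over WT averaged -0.46 with Hyp in Cy5 and 0.02 with Hyp in Cy3. The Dil over WT values of Dbt were thus below 0 in both orientations, whereas its Hyp over WT mean was not. Within each comparison the orientations come from different sets, so dye orientation and set cannot be told apart in these means. The fitted values above have the dye term removed.

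Hsd17b10, at chrX:152001896-152004442 (GRCm38.p6), had the evenest Dil over WT ratios of the members, -0.36, -0.64 and -0.61 in sets 1, 3 and 4. For Hyp over WT it had -0.18, -0.32 and 0.01 in sets 2 to 4, with set 4 at the WT level. Dil over Hyp gave 0.07, -0.21, -0.72 and -0.53, with set 1 close to 0 and sets 3 and 4 low. Its fitted log2 differences were -0.53 ± 0.11 for Dil minus WT, -0.18 ± 0.11 for Hyp minus WT and -0.35 ± 0.10 for Dil minus Hyp, which are ratios of 0.691, 0.883 and 0.782. The Dil over WT mean was -0.50 with Dil in Cy5 (sets 1 and 3) and -0.61 with Dil in Cy3 (set 4). Dye orientation and set cannot be told apart in these means.

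Mmut, at chr17:40934685-40961990 (GRCm38.p6), had Dil over WT ratios of -0.35, -0.43 and -1.02 in sets 1, 3 and 4, of which set 4 was far the lowest. Its Hyp over WT values were -0.05, -0.10, -0.16 and 0.00, the closest to 0 of the members. For Dil over Hyp it had -0.08, -0.05, -0.39 and -0.56, with sets 1 and 2 near 0 and sets 3 and 4 lower. The fit gave -0.50 ± 0.11 for Dil minus WT, -0.15 ± 0.10 for Hyp minus WT and -0.35 ± 0.10 for Dil minus Hyp, or ratios of 0.708, 0.901 and 0.786. With Dil in Cy5 the Dil over WT mean was -0.39 (sets 1 and 3), against -1.02 with Dil in Cy3 (set 4). Here too dye orientation and set cannot be told apart.

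In the fit over all features, 260 of 12097 (2.15%) passed an adjusted p of 0.05 for Dil minus WT (limma, Benjamini-Hochberg), of which 139 (1.15% of all) were lower in Dil. The 3 members were among these, but they were selected on this comparison and nothing is read from that count. No member passed without set 3, without set 4, without the dye term, on the direct arrays alone or with set number as a block. Over all 12097 features these settings left 0, 12, 119, 7 and 6 past the threshold, in this order. The loss without set 3 was thus common to every feature. Further settings kept only some member calls. Dbt and Hsd17b10 passed without set 1, and Dbt alone without set 2. Dbt alone passed without the WT1 and Hyp1 array, and Mmut alone at equal array spread. Over all features these further settings left 119, 83, 94 and 69, in this order. For Hyp minus WT 0 of 12097 features (0%) passed, with 533 at an unadjusted p under 0.05 and a smallest adjusted p of 0.871. For Dil minus Hyp 20 features (0.165%) passed, and 0 of the members did. The order of the fitted levels, Dil lowest, Hyp next and WT highest, was the same for all 3 genes. For Dil minus Hyp and Hyp minus WT no member passed the adjustment over all features, which does not show that these levels are alike.

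The differences varied between the sets of mice. With the dye effect removed, Dil minus WT was -0.45, -0.26, -0.99 and -0.85 for Dbt in sets 1 to 4 (SD 0.34). Hsd17b10 had -0.40, -0.39, -0.77 and -0.58 (SD 0.18), and Mmut had -0.33, -0.15, -0.47 and -0.86 (SD 0.30). For each member the values of sets 3 and 4 lay below those of sets 1 and 2, and all 12 were below 0. The members share these mice and were chosen with their differences known, so this count follows in part from the choice. The set 2 values rest on the Hyp arrays of that set alone.

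For Hyp minus WT the values by set were -0.32, -0.05, -0.45 and -0.11 for Dbt (SD 0.18). Hsd17b10 had -0.51, -0.14, -0.18 and -0.02 (SD 0.21), the set 1 value coming through the Dil1 mouse alone, and Mmut had -0.22, -0.03, -0.12 and -0.15 (SD 0.08). All lay below 0, and sets 3 and 4 were not the lowest throughout. The Dil minus Hyp values in sets 3 and 4 were -0.55 and -0.74 for Dbt, -0.59 and -0.56 for Hsd17b10 and -0.35 and -0.71 for Mmut. In sets 1 and 2 they ran from -0.26 to 0.11 over the 3 genes. Of the 4 Dil mice, those of sets 3 and 4 thus stood further from their Hyp partners than those of sets 1 and 2.

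**Figure D2:**
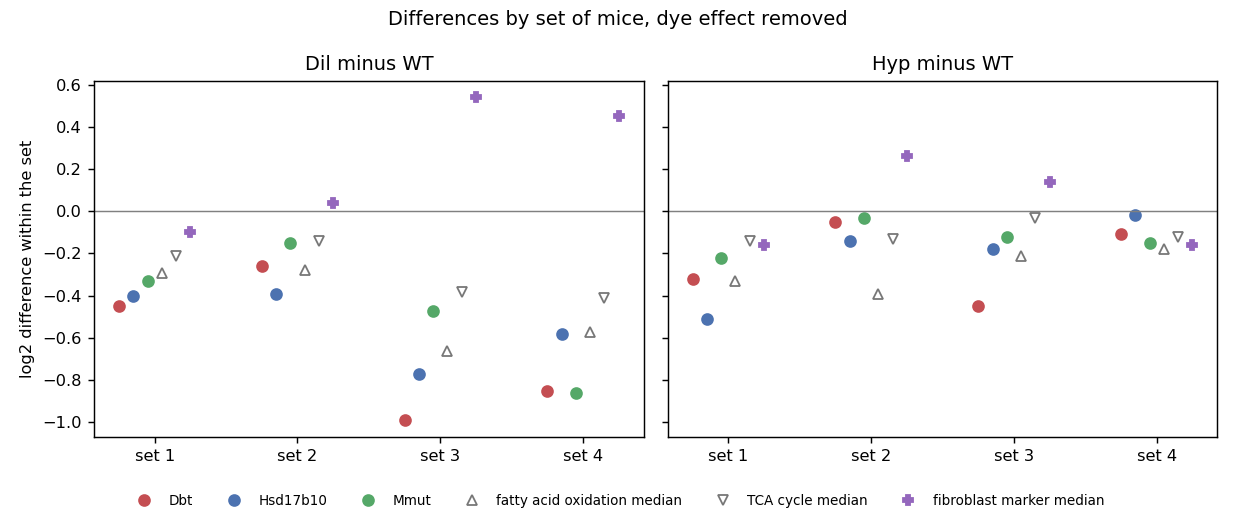
Log2 difference within each set (vertical axis), dye effect removed, for Dil minus WT on the left and Hyp minus WT on the right. Filled circles are the members, open triangles the medians of fatty acid oxidation and TCA cycle genes outside the branched-chain pathway, and crosses the fibroblast marker median, which reaches 0.54 and 0.45 for Dil minus WT in the sets where the members are lowest. The fibroblast markers did not move alike: in those sets Fn1 was at 1.32 and 1.35 and Pdgfra at -0.08 and -0.34.

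Other gene groups moved with these sets. The median of 22 fatty acid oxidation genes outside the pathway was -0.29, -0.28, -0.66 and -0.57 for Dil minus WT in sets 1 to 4, and that of 16 TCA cycle genes was -0.21, -0.14, -0.38 and -0.41. Of 12 fibroblast markers 9 were measured, with a median of 0.22 for Dil minus WT, a range from -0.20 to 0.82 and 0 past the threshold. Their medians by set were -0.10, 0.04, 0.54 and 0.45, highest where the members were lowest. By gene, Dil minus WT was 0.82 ± 0.26 for Fn1, 0.62 ± 0.17 for Col3a1, 0.56 ± 0.22 for Col1a2 and 0.41 ± 0.20 for Vim. Col1a1, Dcn and Tcf21 had 0.22 ± 0.16, 0.19 ± 0.15 and 0.04 ± 0.06, and Lum and Pdgfra -0.05 ± 0.13 and -0.20 ± 0.10. In sets 1 to 4 Fn1 had 0.06, 0.23, 1.32 and 1.35, whereas Pdgfra had -0.16, -0.20, -0.08 and -0.34. The rise in sets 3 and 4 was thus not shared by every marker. Of 17 cardiomyocyte markers 3 were measured, with a median of -0.33 (Ttn 0.08 ± 0.07, Ryr2 -0.33 ± 0.12, Atp2a2 -0.47 ± 0.16), and the defining sarcomere markers Myh6, Tnnt2 and Tnni3 had no measured spot. All 3 measured smooth muscle markers, of 5 listed, were below 0 for Dil minus WT (Myh11 -0.73 ± 0.18, Smtn -0.42 ± 0.15, Cnn1 -0.03 ± 0.08), with medians of -0.24, -0.09, -0.30 and -0.50 in sets 1 to 4. Alas2, the 1 measured erythrocyte marker of 6, was at 0.35 ± 0.12. Medians for Dil minus WT were -0.06 for 6 of 10 endothelial markers, -0.17 for 6 of 7 adipocyte markers and 0.20 for 2 of 9 macrophage and leukocyte markers, and no marker of these lists was past the threshold. The part of cell composition and of array spread in the members' differences was not tested. With all arrays scaled to the same spread, the members' Dil minus WT values ran from -0.56 to -0.37 and their Dil minus Hyp values from -0.27 to -0.24, against -0.43 to -0.35 unscaled. The Dil and Hyp arrays of sets 3 and 4 had the wider spread of their kind, 0.237 and 0.25, against 0.127 and 0.169 in sets 1 and 2.

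The arrays of a set form a round: Dil over WT should equal Dil over Hyp plus Hyp over WT. With the fitted dye term removed, the excess for Dbt was -0.20, 0.09 and -0.04 in sets 1, 3 and 4, for Hsd17b10 0.27 and 0.05 in sets 3 and 4, and for Mmut -0.29, -0.10 and -0.23. The median size over named genes was 0.13, 0.16 and 0.18 in these sets. The members exceeded this median for Dbt in set 1, Hsd17b10 in set 3 and Mmut in sets 1 and 4.

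Among the other genes of the branched-chain pathway few values were as low as those of the members, which were chosen with their values known. Of 45 further genes listed, 28 were measured, and 1 of them (3.57%, against 2.15% of all features) was past the threshold for Dil minus WT, which on 28 genes is a share near the background. Values below 0 were found for 23 of 28, with a median of -0.14, against 5920 of 12097 features and a median of 0.00. For Hyp minus WT 0 of 28 passed, 23 lay below 0 and the median was -0.07. For Dil minus Hyp 0 passed, 22 lay below 0 and the median was -0.08. The comparisons with WT share the WT mice, so their equal counts are not independent.

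**Figure D3:**
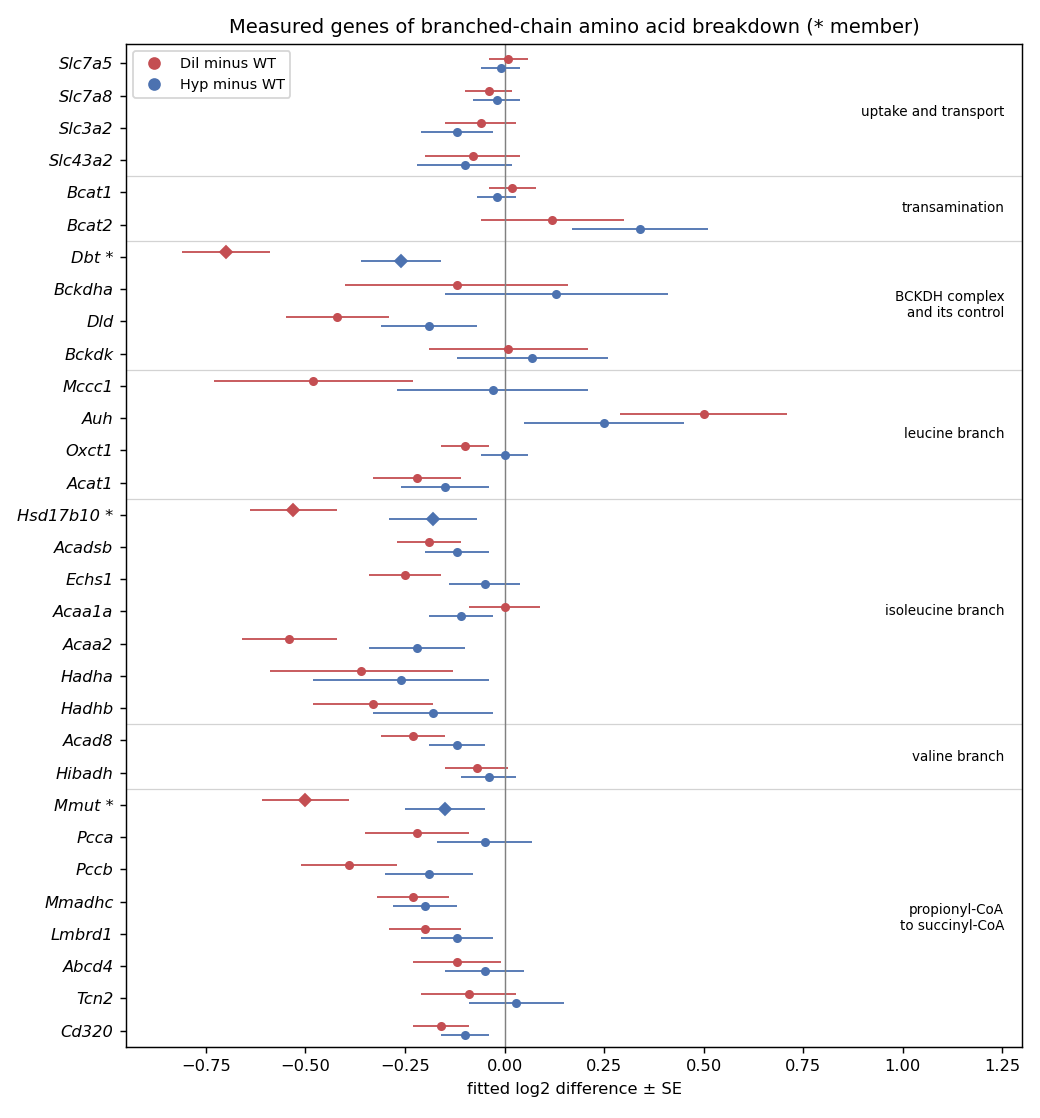
Fitted log2 difference ± SE (horizontal axis) of the 3 members (diamonds, starred) and the 28 other measured genes of branched-chain amino acid breakdown (circles), grouped by step from uptake at the top to succinyl-CoA at the bottom. Dil minus WT is red and Hyp minus WT is blue. The members have Dil minus WT values of -0.70, -0.53 and -0.50, and the 4 transport genes lie between -0.08 and 0.01.

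Along the pathway, the early steps lay near 0. The 4 measured transporters had Dil minus WT values from -0.08 to 0.01. The transaminases Bcat1 and Bcat2 were at 0.02 ± 0.06 and 0.12 ± 0.18, and Bcat2 had the largest Hyp minus WT value of the list, 0.34 ± 0.17 (adjusted p = 0.999, limma). The genes named next beyond the largest values were chosen for their role beside a member, after their values were seen.

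Within BCKDH, the genes measured beside Dbt were Bckdha, Bckdk and Dld. Bckdha, the E1 alpha subunit, was at -0.12 ± 0.28 for Dil minus WT, with set values of -0.36, 0.33, -0.86 and 0.44 that scatter on both sides of 0. The kinase gene Bckdk was at 0.01 ± 0.20 (sets -0.21, 0.17, -0.50 and 0.67). Dld, the E3 subunit shared with the pyruvate and 2-oxoglutarate dehydrogenases, was at -0.42 ± 0.13 (adjusted p = 0.12, limma). In sets 1 to 4 Dbt lay below both genes each time, and the differences between genes were not tested. Of the lipoate genes and sister complexes, 8 of 11 listed genes were measured, all below 0 (median -0.13, 0 past the threshold). The E2 sisters of Dbt, Dlat of pyruvate dehydrogenase and Dlst of 2-oxoglutarate dehydrogenase, had -0.25 ± 0.12 and -0.17 ± 0.09. The remaining members of this group were Pdhb at -0.19 ± 0.06, Pdha1 at -0.13 ± 0.10, Ogdh at -0.13 ± 0.12, Lias at -0.11 ± 0.12, Pdhx at -0.05 ± 0.12 and Gcsh at -0.03 ± 0.12.

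In the leucine branch, 4 of 8 genes were measured and lay on both sides of 0. Mccc1, a subunit of methylcrotonyl-CoA carboxylase, had -0.48 ± 0.25 for Dil minus WT (adjusted p = 0.383, limma) and -0.45 ± 0.24 for Dil minus Hyp. Its Dil over WT ratios were 0.23, -0.30 and -0.78 in sets 1, 3 and 4, with set 1 above 0 and set 4 lowest. With the dye effect removed, Dil minus WT was -0.06, -0.10, -0.45 and -1.10 in sets 1 to 4. Auh, the hydratase of the following step, had 0.50 ± 0.21 for Dil minus WT (adjusted p = 0.257, limma), and 1.78 of log2 ratio on the set 4 array against 0.03 and 0.11 in sets 1 and 3. Its Hyp minus WT value was 0.25 ± 0.20.

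The isoleucine branch, to which Hsd17b10 belongs, had all 6 further genes measured, with a Dil minus WT median of -0.29. Several of them, such as Acaa2 and Hadha, also serve fatty acid oxidation, so this median does not stand for isoleucine breakdown alone. Hadhb was at -0.33 ± 0.15, Echs1 at -0.25 ± 0.09, Acadsb at -0.19 ± 0.08 and Acaa1a at -0.00 ± 0.09. Acaa2, a thiolase of this list and of fatty acid oxidation, was lower in Dil at -0.54 ± 0.12 (adjusted p = 0.049, limma) and is the gene past the threshold. The call was lost without any 1 of the sets (adjusted p from 0.0512 to 0.357), with set number as a block (adjusted p = 0.19) and under several other settings, while its value stayed below 0. Its spots disagreed: one had -0.09, -0.22 and 0.07 for Dil over WT in sets 1, 3 and 4, and the other -0.68, -1.40 and -1.44. Fitted apart they gave -0.04 (adjusted p = 0.882) and -1.04 (adjusted p = 0.0258), so the gene's value is an average of spots that do not match. Hadha, the alpha subunit of the trifunctional protein of fatty acid oxidation, had -0.36 ± 0.23 for Dil minus WT and -0.26 ± 0.22 for Hyp minus WT.

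Hsd17b10 also works outside this pathway, in mitochondrial RNase P. Of its partners there, Trmt10c, the methyltransferase subunit, had -0.12 ± 0.09 and Prorp, the nuclease subunit, -0.00 ± 0.06 for Dil minus WT. Neither passed the threshold.

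From propionyl-CoA to succinyl-CoA, 7 of 11 genes beside Mmut were measured, and all 7 were below 0 for Dil minus WT, with a median of -0.20 and 0 past the threshold. Pccb and Pcca, the subunits of propionyl-CoA carboxylase just upstream of Mmut, had -0.39 ± 0.12 (adjusted p = 0.112, limma) and -0.22 ± 0.13. For Hyp minus WT they had -0.19 ± 0.11 and -0.05 ± 0.12. Mmadhc, which routes vitamin B12 to its enzymes, had -0.23 ± 0.09 for Dil minus WT, -0.20 ± 0.08 for Hyp minus WT and -0.03 ± 0.08 for Dil minus Hyp. Mtr and Mtrr, of the other vitamin B12 enzyme, had no measured spot.

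Set beside the main fuel pathways, the members' Dil minus WT values of -0.70, -0.53 and -0.50 lie below the median of the fatty acid oxidation genes outside the pathway (-0.45, 22 measured, 7 past the threshold and lower) and below that of the TCA cycle genes (-0.28, 16 measured, 3 past the threshold and lower). The members were chosen with these values known, so their place below both medians follows in part from that choice. Over all features 1.15% were past the threshold and lower. With set number as a block, without set 3, without set 4 and on the direct arrays alone, 0 genes of either list remained. Without set 1, without set 2 and without the dye term the TCA cycle list had 0 and fatty acid oxidation 5, 3 and 5. At equal array spread and without the WT1 and Hyp1 array the TCA cycle list had 0 and fatty acid oxidation 1 and 2. The members' values stay within the range of fatty acid oxidation, whose lowest gene was at -0.96. The 28 other pathway genes, at a median of -0.14, lie nearer to 0 than both lists, and the 23 of them that belong to neither list had a median of -0.10. These differences between lists were not tested.

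The genes whose ratios ran most like each member's over the arrays were ranked by Pearson's r among 8105 genes, as a description with no test, since the arrays share mice, dye orientation and group differences. Hsd17b10 ranked 3 for Dbt and Dbt ranked 3 for Hsd17b10 (r = 0.967 over 10 arrays). Mmut ranked 25 for Dbt (r = 0.933 over 11 arrays) and 87 for Hsd17b10 (r = 0.896 over 10 arrays). Dbt and Hsd17b10 thus ran closer to each other than either did to Mmut.

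The nearest genes to Dbt were Tcaim (r = 0.982), the pyruvate dehydrogenase phosphatase Pdp2 (0.969), Hsd17b10, Spryd7 (0.965) and the carboxylesterase Ces1d (0.961). Those nearest to Hsd17b10 were Ech1 (0.977) and Hadh (0.964), both enzymes of fatty acid oxidation, Bzw2 (0.974), Dbt and Spryd7 (0.961). Mmut ran closest to Ttc32 (0.978), the potassium channel gene Kcnd2 (0.977), Spryd7 (0.975), Arhgap28 (0.974) and Mterf2 (0.970), a mitochondrial transcription factor. Spryd7 is among the 5 nearest of every member, with -0.53 ± 0.09 for Dil minus WT. The Dil minus WT sizes of the neighbours ranged widely, from -2.37 ± 0.28 for Ces1d to -0.29 ± 0.08 for Bzw2, so likeness of pattern did not mean likeness of size.

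**Figure D4:**
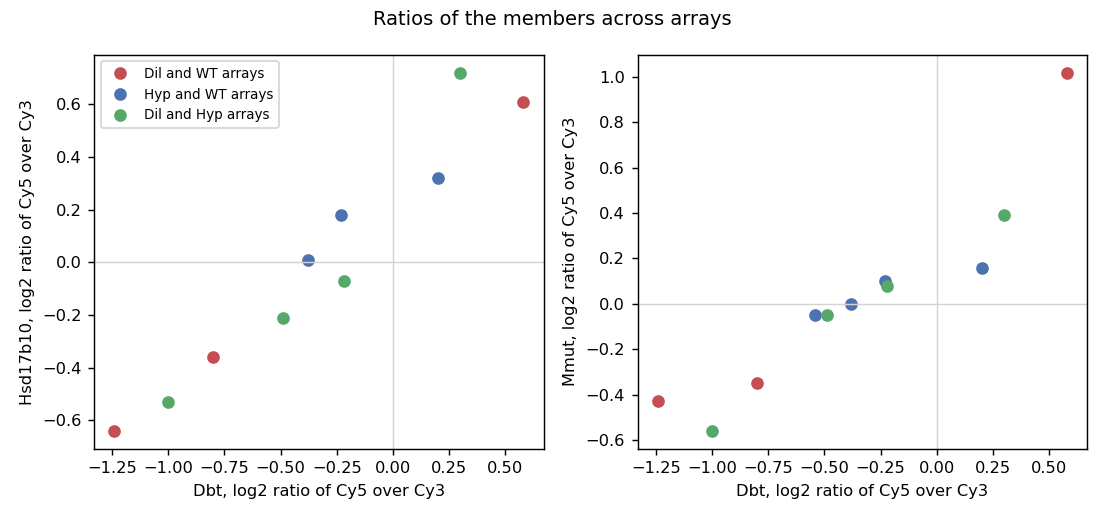
Log2 ratio of Cy5 over Cy3 of Hsd17b10 (left, 10 arrays) and Mmut (right, 11 arrays) against that of Dbt, 1 point per array, coloured by the groups on the array. The Dbt and Hsd17b10 ratios have r = 0.967 and the Dbt and Mmut ratios r = 0.933.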

How the data were processed

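Per the labels, ventricular RNA was labelled with Cy3 or Cy5 and hybridised to cDNA slides. The authors deposited 1 log ratio per spot and array, used as log2 values. For the scanner, background correction and normalization: not given in the sources used here. Medians of the arrays ran from -0.0135 to 0.0037. The array of WT1 and Hyp1 was realigned against the other arrays of set 1: 40 of 46 position groups were moved by 8 blocks, and 3767 spots (21.3%) were left without a value. Spots were named through the platform annotation, and spots of a gene averaged. Features with a value on at least 9 of 11 arrays were kept (8106 genes, 3991 unnamed spots). Ratios were fitted by generalised least squares with terms for Dil, Hyp and dye and mice as random effects (variance ratio 0.303), moderated with limma (version 3.58.1, R version 4.3.3), adjusted by Benjamini-Hochberg at 0.05. The procedure was tested on data simulated from its own model, with the same error on every array and larger changes than those of the members. The simulation thus did not cover changes of the members' size or the unequal spread of these arrays. Errors assume that every feature shares 1 variance ratio. Mice are separate animals, and same-numbered mice share arrays by design, so differences between numbers cancel within each ratio. The members, the gene lists and the naming rule (members, pathway genes past the threshold, the 3 largest values per comparison, relatives, and the 5 nearest genes by correlation) were chosen with earlier results of these data known. Alternatives covered the dye term, mouse effect, array scale, realigned array, array choice, value filter, spot averaging, set block and leaving out each set.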

Additional observations from a re-analysis of the deposited data

Results flagged for a closer look

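Among 24 groups of 4 set values examined (members and named pathway genes), 2 held a value far from the others. Chance alone gives about 1 in 20 for independent groups. That rate does not apply here, since the groups share genes and mice and several genes were named for large differences. The Auh value of set 4 for Dil minus WT was 1.22, against 0.28, 0.22 and 0.20 in sets 1 to 3. For Dil minus Hyp, the Bcat2 value of set 4 was -0.59, against -0.04, -0.07 and -0.03 in sets 1 to 3. No member had such a value in any comparison.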

How the results depend on the processing

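Every member kept values below 0 in all 3 comparisons under each alternative that could be run (15 for Dbt and Mmut, 14 for Hsd17b10, which has no value when all arrays are required), and moved by less than the spread between sets. Some of these alternatives could not move a member. Each has 1 spot, so fitting spots apart or changing the value filter left its values the same. The spread between sets was also wide, with an SD of up to 0.34 for Dil minus WT, and is a loose bound. Leaving out a set and the replicate block reuse the set values that define this spread. For these alternatives, staying within it was nearly fixed in advance. Dil minus WT ran from -0.80 to -0.56 for Dbt, -0.62 to -0.43 for Hsd17b10 and -0.70 to -0.34 for Mmut. Hyp minus WT ran from -0.30 to -0.17 for Dbt, -0.24 to -0.09 for Hsd17b10 and -0.17 to -0.08 for Mmut, and Dil minus Hyp from -0.55 to -0.27, -0.51 to -0.24 and -0.44 to -0.21. Moves of over 1.5 times were Dbt Hyp minus WT at -0.17 with the WT1 and Hyp1 column as deposited, Dbt Dil minus Hyp at -0.27 with equal array spread, Hsd17b10 Hyp minus WT at -0.09 without the Dil1 and Hyp1 array, Mmut Hyp minus WT at -0.08 on direct arrays alone and Mmut Dil minus Hyp at -0.21 without set 4. The counts past the threshold moved more. For Dil minus WT, against 260 features, the replicate block left 6, leaving out 1 set left 0 to 119, no dye term 119, equal array spread 69, leaving out the WT1 and Hyp1 array 94 and the direct arrays alone 7. Leaving out the Dil1 and Hyp1 array, chosen after seeing the data, gave 447. Among the other pathway genes the count of 1 became 0 under the replicate block, without each set in turn, with no dye term, at equal array spread, with the WT1 and Hyp1 column as deposited or left out, and on direct arrays alone. For Dil minus Hyp, against 20 features, the replicate block and direct arrays alone left 0, leaving out 1 set between 0 and 15, no mouse effect 52, the WT1 and Hyp1 column as deposited 33, that array left out 6 and the Dil1 and Hyp1 array left out 42. The replicate block estimate is the mean of the set values, so its closeness to the main value within their spread is no sign of stability. Under it no member passed for Dil minus WT. Fewer arrays enter several of these fits; otherwise the cause was not tested. With no spot brightness, precision was judged from the scatter of each feature's ratios and is limited by 4 mice per group.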
